A study of Homo sapiens with 6 samples.

Results

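Binding of the corepressor TLE3 was followed at 9 genes of the secretory programme of luminal breast cells: XBP1, AGR2, AGR3, TFF1, TFF3, MLPH, CA12, NAT1 and SLC39A6. The peaks of 4 chromatin immunoprecipitation (ChIP-seq) libraries were merged where they shared at least 1 bp, which gave 72272 regions on hg38. A region was given to the protein-coding gene whose span it overlaps, or to the nearest within 100 kb, and 60 regions fell to the 9 genes. The 9 genes were taken by name, with earlier results of these data known. The cells were MDA-MB-453, an established human breast cancer line. The 2 siFOXA1 libraries (siFOXA1 1 and 2) came from cells with transient silencing of FOXA1, and the 2 siNS libraries (siNS 1 and 2) from cells without it. All 4 were precipitated with an antibody to TLE3 after double cross-linking. The series asks whether TLE3 needs FOXA1 to bind. Peak lists measure no expression, so neither the loss of FOXA1 nor the luminal identity of the cells was checked.

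TLE3 belongs to the Groucho/TLE family of corepressors, which do not recognise DNA sequence and are brought to chromatin by transcription factors. FOXA1 is a forkhead pioneer factor that opens chromatin in luminal breast cells. The 9 genes serve the making and export of proteins in such cells or mark oestrogen receptor-positive tumours. XBP1 encodes the transcription factor that expands the endoplasmic reticulum in the unfolded protein response. AGR2 and AGR3 encode protein disulfide isomerases of the endoplasmic reticulum, and TFF1 and TFF3 secreted trefoil peptides. MLPH encodes melanophilin, which links Rab27 vesicles to myosin Va. CA12 is a membrane carbonic anhydrase, SLC39A6 (LIV-1) a zinc transporter and NAT1 a cytosolic arylamine acetyltransferase.

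The lists held 45109 peaks in siNS 1, 46589 in siNS 2, 12253 in siFOXA1 1 and 13763 in siFOXA1 2. They hold no reads, so depth is unknown. Each peak carries a score from the authors, with no definition among the sources used here. It is given below as a rank, the percent of peaks of the same list that score no higher, so that 100% is the strongest peak of its list. The siFOXA1 ranks refer to much shorter lists, so a rank in one group and a rank in the other are not on a common scale.

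The promoter sequences of 6 of the 9 genes were found in a table of RefSeq starts (GRCh38.p14), with 8 starts in all. They are shown because the control libraries placed TLE3 over most of them. Each is the 250 bases upstream of a start, 5′ to 3′ on the strand of the gene, and capitals mark the fixed letters of motifs that matched.
XBP1, chr22:28800570-28800819, minus strand: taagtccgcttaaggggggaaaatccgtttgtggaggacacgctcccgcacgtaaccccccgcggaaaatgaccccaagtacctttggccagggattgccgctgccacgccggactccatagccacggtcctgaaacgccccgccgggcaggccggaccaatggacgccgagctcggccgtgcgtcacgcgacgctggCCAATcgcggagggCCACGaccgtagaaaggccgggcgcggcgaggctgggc
CA12, chr15:63381847-63382096, minus strand: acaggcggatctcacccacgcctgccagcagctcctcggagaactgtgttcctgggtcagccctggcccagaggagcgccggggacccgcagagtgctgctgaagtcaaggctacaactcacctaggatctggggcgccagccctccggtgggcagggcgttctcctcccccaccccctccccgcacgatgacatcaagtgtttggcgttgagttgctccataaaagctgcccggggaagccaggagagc
MLPH, chr2:237487001-237487250, plus strand: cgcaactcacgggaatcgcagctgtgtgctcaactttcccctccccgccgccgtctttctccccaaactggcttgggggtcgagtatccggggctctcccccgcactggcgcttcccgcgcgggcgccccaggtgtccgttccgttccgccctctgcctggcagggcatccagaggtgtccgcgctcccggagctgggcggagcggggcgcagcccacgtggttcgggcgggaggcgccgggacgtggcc
SLC39A6, chr18:36129341-36129590, minus strand: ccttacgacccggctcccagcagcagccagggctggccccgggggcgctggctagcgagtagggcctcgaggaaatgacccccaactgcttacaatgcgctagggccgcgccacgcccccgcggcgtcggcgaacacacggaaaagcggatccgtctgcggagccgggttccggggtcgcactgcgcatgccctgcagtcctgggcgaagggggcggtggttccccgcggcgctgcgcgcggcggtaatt
AGR2, chr7:16805000-16805249, minus strand: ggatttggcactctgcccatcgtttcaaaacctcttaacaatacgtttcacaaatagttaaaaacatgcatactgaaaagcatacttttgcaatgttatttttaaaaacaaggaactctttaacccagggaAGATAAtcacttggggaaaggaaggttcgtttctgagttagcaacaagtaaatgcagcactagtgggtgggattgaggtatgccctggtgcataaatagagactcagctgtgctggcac
AGR3, chr7:16881984-16882233, minus strand: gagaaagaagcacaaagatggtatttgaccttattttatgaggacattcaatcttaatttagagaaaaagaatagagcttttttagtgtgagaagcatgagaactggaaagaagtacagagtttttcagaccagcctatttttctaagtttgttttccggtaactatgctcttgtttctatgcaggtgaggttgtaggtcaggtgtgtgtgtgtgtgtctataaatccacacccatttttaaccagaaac

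The first 4 of these windows lay under a peak of both siNS libraries and of neither siFOXA1 library. Such absence is common, since 6.21% of all regions with peaks of both siNS libraries within 1 kb of a gene end held a siFOXA1 peak. At CA12, MLPH and SLC39A6 all 250 bases were covered in siNS 1 and in siNS 2, and at XBP1 214 bases in siNS 1 and 250 in siNS 2. At AGR2 76 bases were covered in siNS 2 only, and at AGR3 none in any library. The 4 windows covered in both siNS libraries were 64.8% to 72.4% G and C, and those of AGR2 and AGR3 40.4% and 36.4%. MLPH has another start in the table, 841 bp upstream, with 41.6% G and C, where 41 of 250 bases lay under a siNS 1 peak. XBP1 has another start too, inside the gene, where 196 of 250 bases lay under a siNS 1 peak and none under a siNS 2 peak. That window had the highest share of G and C of the 8, 74.4%.

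Few of the motifs searched were found in these promoters, on either strand. TGTTTAC, a forkhead core bound by factors such as FOXA1, matched none of the 8 upstream windows, against 2.98% of 35116 windows of that length in the table. The variant core TGTTTGC matched none either (3.23% of all). The palindromic oestrogen response element matched none (0.0399% of all), nor did the unfolded protein response element TGACGTG (1.68%) or the TCF motif CTTTGA (11.2%). AGATAA, which fits the motif of GATA factors, was found at AGR2, 114 bp upstream of the start (9.17% of all). GCCNNNGGC, an AP-2 motif, was found at the inner start of XBP1 only (19.8% of all). The XBP1 window holds the endoplasmic reticulum stress element, a CCAAT box followed after 9 free bases by a further fixed part, both in capitals above, which ATF6 and XBP1 bind in the unfolded protein response. It ends 34 bp upstream of the start and matched 26 of all 35116 windows (0.074%). This motif was added after the sequence had been read. These windows cover only the promoters, and the sequence of the other regions was not used here. A match is not evidence of binding.

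Peaks at the 9 genes were fewer in the siFOXA1 libraries. siNS 1 had 31 and siNS 2 had 44 peaks assigned to them, against 7 in siFOXA1 1 and 9 in siFOXA1 2, a 4.69-fold difference of means (37.5 ± 9.19 against 8 ± 1.41, SD, n = 2 each). The groups did not overlap, but peaks assigned to any protein-coding gene differed 4.32-fold as well, and whole lists, which include peaks far from genes, 3.53-fold. As a share of each list, the 9 genes held 0.0687% and 0.0944% of siNS peaks and 0.0571% and 0.0654% of siFOXA1 peaks. The lowest siNS share and the highest siFOXA1 share lay close together. As a share of the peaks assigned to a protein-coding gene, a choice added after the data were seen, the values were 0.073% and 0.104% in siNS and 0.075% and 0.0869% in siFOXA1, so the groups overlapped (exact permutation p = 1). Without siNS 2 the difference of means fell from 0.0203 to 0.00744 percentage points. A two-sided exact permutation test gave p = 0.33 for the number and for the share of the list, the smallest that 2 against 2 libraries allow. With each list cut to its 12249 strongest peaks, the 9 genes held 8 and 15 siNS peaks and 7 and 8 siFOXA1 peaks, so the groups then met. The titles number the libraries as biological replicates but name no separate cultures, so the spread between them may be technical.

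**Figure D1:**
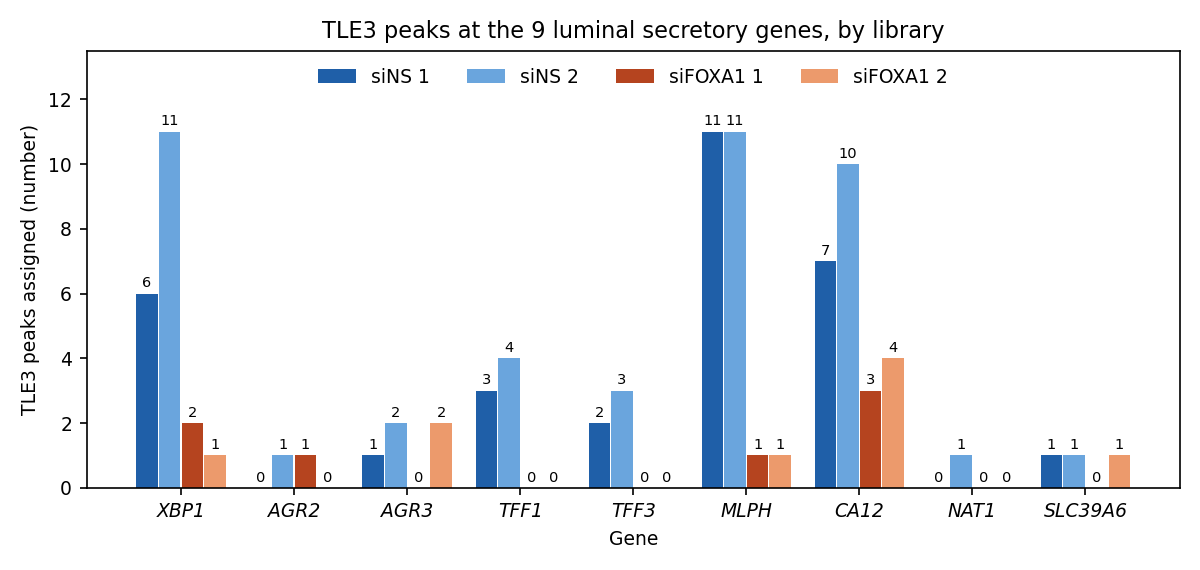
Number of TLE3 peaks assigned to each of the 9 genes (bars, with the number above) in the 4 libraries. MLPH has the most siNS peaks, 11 in each library, and AGR2, AGR3, NAT1 and SLC39A6 have 0 to 2 peaks in every library. Peaks assigned to any protein-coding gene differ 4.32-fold between the group means.

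The genes differed in where the control peaks lay and in how many there were. A siNS consensus region, with a peak of both siNS libraries, was found at 7 of the 9 genes, against 61.9% of 20037 protein-coding genes. AGR2 and NAT1 had none. All 9 genes had a peak of at least 1 siNS library (79.1% of all genes) and 6 had a siFOXA1 peak (30.8%). There were 18 such regions, 4 each at XBP1, MLPH and CA12, 3 at TFF1 and 1 each at AGR3, TFF3 and SLC39A6. Of all protein-coding genes, 6.76% had 4 or more. Only 3 of the 18 regions held a siFOXA1 peak, 1 each at XBP1, MLPH and CA12 (13.8% of all genes had such a region), which is 16.7% (exact 95% binomial interval 3.58 to 41.4%, counting error only). Over all 24967 siNS consensus regions the share was 17.0%, so the 9 genes lay at the background. In the XBP1 region the siFOXA1 peak overlapped the siNS 2 peak and not the siNS 1 peak. By library, siFOXA1 1 peaks lay in 3 of the 18 (background 13.4%) and siFOXA1 2 peaks in 2 (background 14.0%), with both in 2 (background 10.4%). Without siNS 2, when a siNS 1 peak alone counts, 2 of 31 regions (6.45%) held a siFOXA1 peak, against 9.55% of all.

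The 3 siNS consensus regions that held a siFOXA1 peak lay more than 1 kb from a gene end, but the numbers are too small to set them apart from the background. Of the 18 siNS consensus regions 10 lay at most 1 kb from an end of the gene (42.3% of all), and none of the 10 held a siFOXA1 peak (background 6.21%; exact 95% upper limit 30.8%). These were at XBP1, TFF1, TFF3, MLPH, CA12 and SLC39A6. At that background fewer than 1 of 10 would hold one. Of the 8 farther away 3 held one, against 24.9% of all such regions. Of all 11 regions of the 9 genes with a siFOXA1 peak, 1 lay within 1 kb of a gene end, at SLC39A6 (background 4.96%). The 3 with a siFOXA1 peak had mean siNS ranks of 65.4% to 96.7%, and the 15 without ranged from 16.5% to 91%. The difference between the positions was not tested at these genes, since regions are not replicates.

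XBP1 (chromosome 22, 28794560 to 28800569) carried a siNS region over its start and a row of regions far upstream. The region over the start (28800132 to 28800928) ranked 72.1% in siNS 1 and 56.4% in siNS 2, and neither siFOXA1 library had a peak there. A region 0.843 kb upstream (28801412 to 28801888) ranked 69.8% in siNS 1 and 19% in siNS 2. Another lay 0.664 kb past the far end of the gene (28793558 to 28793896), with ranks of 55.6% and 53.7%. These 3 regions close to the gene were thus found in the control libraries alone.

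The upstream stretch of XBP1 differed between the siNS libraries. The region 17.2 kb upstream (28817733 to 28818966) ranked 90% in siNS 2, 40.7% in siNS 1 and 31.2% in siFOXA1 1, with no siFOXA1 2 peak. It is the XBP1 siNS consensus region that held a siFOXA1 peak, and leaving out siFOXA1 1, or siNS 2, leaves none among its siNS regions. The siNS 1 peak (267 bp) and the siFOXA1 1 peak (410 bp) share no base there and are joined only by the siNS 2 peak of 1234 bp. The region 22.2 kb upstream (28822807 to 28823489) ranked 76.7% in siNS 2, 33.1% in siFOXA1 1 and 7.95% in siFOXA1 2, with no siNS 1 peak. Further regions of siNS 2 alone lay 8.38, 13 and 18.7 kb upstream, with ranks of 73.9%, 88.7% and 87%. Others of siNS 2 alone, 21.7 and 26.4 kb upstream, were weak, with ranks of 3.53% and 5.91%. A region of siNS 1 alone lay 24 kb upstream, with a rank of 32.1%. In all XBP1 had 13 regions, with 6 peaks in siNS 1, 11 in siNS 2, 2 in siFOXA1 1 and 1 in siFOXA1 2. The next protein-coding gene on that side, ZNRF3, starts 83 kb from XBP1, so assignment by distance does not tie these regions to XBP1.

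**Figure D2:**
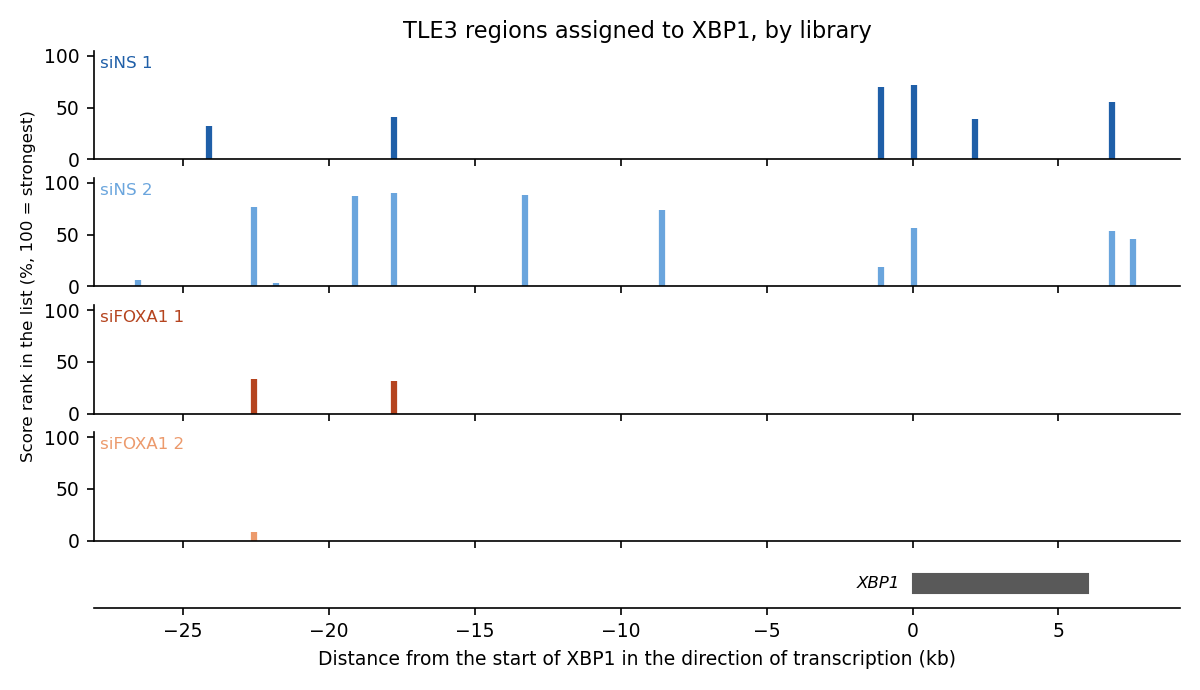
TLE3 regions of XBP1 by distance from its outer start (kb, x axis, negative upstream); each bar is a region with a peak in that library, and its height is the score rank in the list (%). Near the gene only the siNS libraries have peaks, while the upstream regions 17.2 and 22.2 kb away have peaks of siNS 2 and of at least 1 siFOXA1 library.

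The AGR pair had few TLE3 regions, and none at either start in both siNS libraries. AGR2 (chromosome 7, 16791811 to 16804999) had a siNS 2 peak over its start (16804824 to 16805075), with a rank of 18.8%. It also had a siFOXA1 1 peak 8.27 kb upstream, with a rank of 39.9%. AGR3 (16854681 to 16881983) had 1 siNS consensus region, 46.2 kb upstream (16928214 to 16928570), with ranks of 42% in siNS 1 and 70.7% in siNS 2. A siNS 2 peak lay 6.82 kb past its far end, between the 2 genes, with a rank of 77.1%. Peaks of siFOXA1 2 alone lay 23.3 and 33.5 kb upstream of AGR3, with ranks of 46.5% and 26.2%. Peaks per library overlapped between the groups at both genes, with 0, 1, 1 and 0 at AGR2 and 1, 2, 0 and 2 at AGR3 (siNS 1, siNS 2, siFOXA1 1, siFOXA1 2). Given the lone peaks, no difference between the groups could be seen at AGR2 or AGR3.

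The trefoil genes had siNS peaks only, densely so at TFF1. TFF1 (chromosome 21, 42362282 to 42366535) had 4 regions in a gene of 4254 bp. The strongest overlapped its higher-coordinate end (42366200 to 42366952), with ranks of 85.5% in siNS 1 and 90.4% in siNS 2. The others lay inside the gene. The region 42364331 to 42365000 ranked 52.2% and 36.1%, and the region 42365153 to 42366002 ranked 32.3% and 0.805%, near the bottom of the siNS 2 list. A siNS 2 peak alone (42363327 to 42363947) ranked 28.8%. With peaks widened by 250 bp on each side, the 3 siNS consensus regions of TFF1 became 1.

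TFF3 (42311667 to 42315409) had 1 siNS consensus region, over its higher-coordinate end (42315225 to 42315906), with ranks of 79.3% and 76.6%. Its 3 other regions were of 1 siNS library each, with ranks of 4.47% to 35.4%. Neither gene had a peak in a siFOXA1 library. TFF1 had 3 and 4 siNS peaks and TFF3 2 and 3 (two-sided exact permutation p = 0.33 for each, the smallest possible). Over all protein-coding genes 79.1% had a siNS peak and 30.8% a siFOXA1 peak. The share of all genes whose groups do not overlap was not computed, so this is not read as a trait of the trefoil genes. TFF2, the trefoil gene between them, had 1 siNS consensus region and no siFOXA1 peak.

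MLPH (chromosome 2, 237486410 to 237555322) had the most regions, 17, with 11 peaks in each siNS library and 1 in each siFOXA1 library. Of the 17 regions 4 were shared by both siNS libraries, against 34.5% of all merged regions. Over the inner start and the promoter shown above (237486913 to 237487812), the ranks were 86.2% in siNS 1 and 65.1% in siNS 2. A region 2.11 kb upstream (237481996 to 237484297) ranked 82.8% and 80.8%. It spans 2302 bp through 1 siNS 2 peak, while siNS 1 had 2 peaks there, the stronger 581 bp wide. A region 10.5 kb upstream (237475011 to 237475887) ranked 91.1% and 90.9%. None of these 3 had a siFOXA1 peak. The last was among the stronger peaks of both control lists. With all siNS consensus regions cut into 5 equal bins by mean siNS rank, 42.6% of the strongest bin held a siFOXA1 peak.

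The MLPH region found in all 4 libraries lay inside the gene, 13.4 kb beyond its inner start (237500652 to 237501443). It ranked 63.8% in siNS 1 and 90.3% in siNS 2, and 25.4% in siFOXA1 1 and 31.7% in siFOXA1 2. The siFOXA1 peaks there were 311 and 283 bp wide, against 551 and 792 bp in siNS. Over whole lists the median widths were 336 and 347 bp in siFOXA1 and 419 and 446 bp in siNS. At 14.9 kb beyond that start, a siNS 2 peak ranked 87% and had no siNS 1 counterpart.

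**Figure D3:**
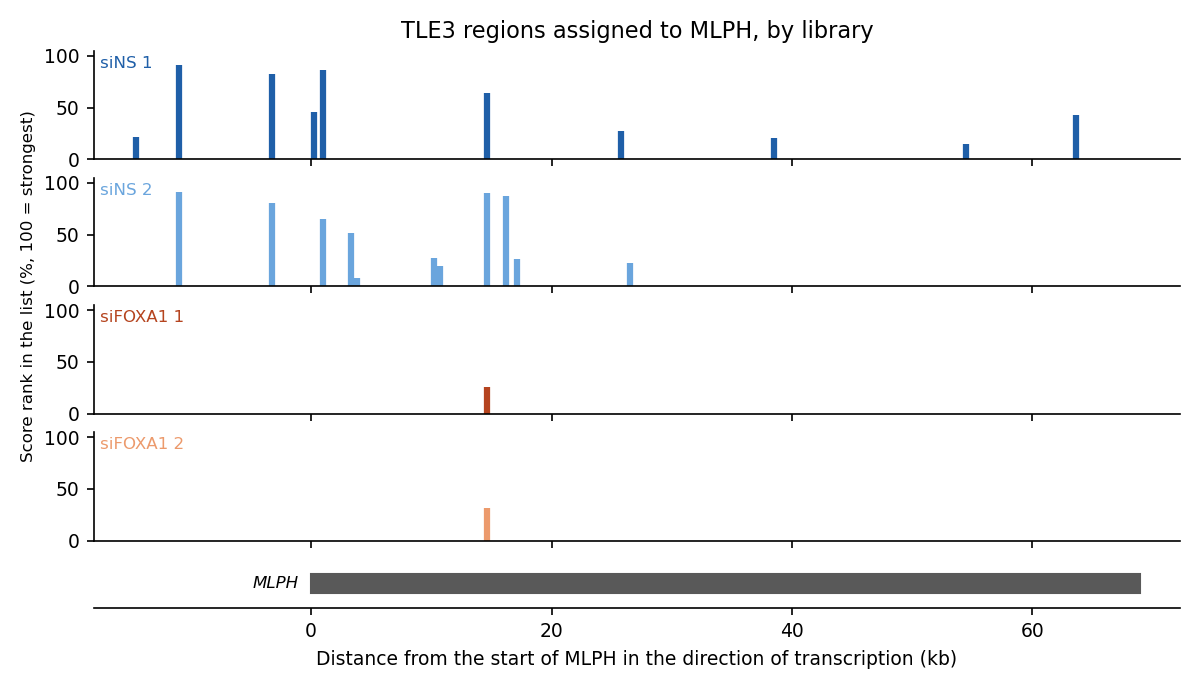
TLE3 regions of MLPH by distance from its outer start (kb, x axis, negative upstream), with the score rank in each list (%) as bar height. Of the regions shared by the siNS libraries, the 3 at and upstream of the starts have no siFOXA1 peak, and the 1 inside the gene has peaks in all 4 libraries.

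CA12 (chromosome 15, 63321378 to 63381846) had the most siFOXA1 peaks of the 9 genes, with 3 in siFOXA1 1 and 4 in siFOXA1 2 against 7 and 10 in the siNS libraries. Its strongest siNS region lay inside the gene, 1.44 kb beyond the start (63379038 to 63380405), with ranks of 96.2% in siNS 1 and 97.3% in siNS 2. The same region had siFOXA1 peaks with ranks of 60.2% and 41%, which were 344 and 343 bp wide against 902 and 1358 bp. The siFOXA1 widths were close to the list medians given for MLPH, and the siNS widths were above them. The region over the start itself (63381490 to 63382585) ranked 85.3% and 82.9% in siNS and had no siFOXA1 peak. Strong siNS regions 1.08 kb apart thus differed in whether siFOXA1 peaks were called.

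Upstream of CA12 the siFOXA1 libraries shared peaks with siNS 2 alone. The region 25.7 kb upstream (63407536 to 63408216) ranked 90.4% in siFOXA1 1, 89.6% in siFOXA1 2 and 83.1% in siNS 2, and siNS 1 had no peak. It was the strongest siFOXA1 peak at the 9 genes in both siFOXA1 lists. The region 8.03 kb upstream (63389878 to 63390241) ranked 24.1%, 25.9% and 44% in the same libraries. At the far end of the gene, 2 siNS consensus regions had no siFOXA1 peak. The region over that end (63321254 to 63322043) ranked 27.4% in siNS 1 and 49.9% in siNS 2, and the region 63329930 to 63330277 ranked 57.1% and 48%.

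**Figure D4:**
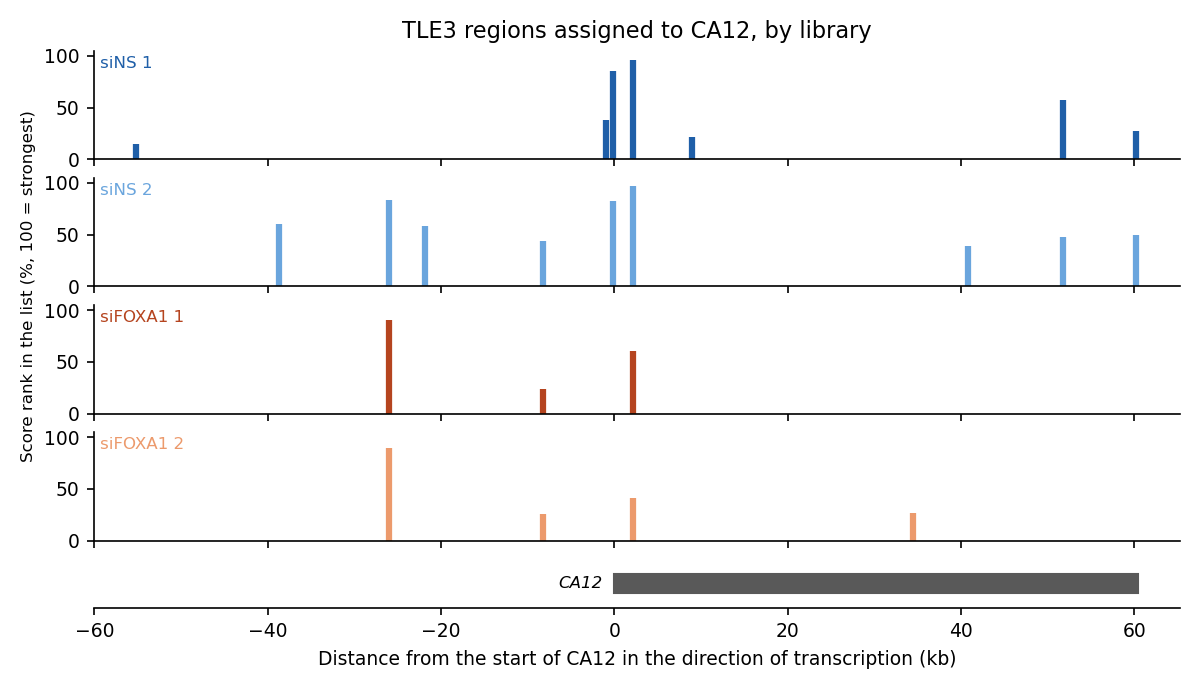
TLE3 regions of CA12 by distance from its start (kb, x axis, negative upstream), with the score rank in each list (%) as bar height. The siFOXA1 libraries share the regions 25.7 and 8.03 kb upstream and 1.44 kb downstream, and have no peak at the start, where the siNS ranks are 85.3% and 82.9%.

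SLC39A6 (chromosome 18, 36108531 to 36129340) had 1 siNS consensus region, over its start (36128907 to 36130144), with ranks of 81% in siNS 1 and 65.1% in siNS 2 and no siFOXA1 peak. The next gene, ELP2, begins 0.559 kb away, and the region overlaps both genes. It was given to SLC39A6, with which it shares more bases, and cannot be told apart from a region of ELP2. A siFOXA1 2 peak with a rank of 15.3% lay inside SLC39A6, near its far end. NAT1 (chromosome 8, 18170467 to 18223689) had 1 peak in all, of siNS 2, 6.94 kb outside the gene, with a rank of 26.4%. It had the largest stretch of genome assigned to it, 177 kb.

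Regions found after silencing were few, and those that both siFOXA1 libraries shared were too few to set apart from the background. There were 5 siFOXA1 consensus regions, 3 at CA12 and 1 each at XBP1 and MLPH, and so at 3 of the 9 genes, against 19.4% of all protein-coding genes. All 5 had a siNS 2 peak (background 59.0%, exact 95% binomial interval 47.8 to 100%) and 2 had a siNS 1 peak (background 32.7%). The 3 without a siNS 1 peak, at XBP1 and CA12, were 3 of the 60 regions (background 3.09%). None was without a siNS peak (exact 95% upper limit 52.2%), against 40.0% of all 8205 siFOXA1 consensus regions. Of these 8205, 6272 were assigned to a protein-coding gene, as the regions of the 9 genes are by definition. None lay within 1 kb of a gene end, where 4.80% of all siFOXA1 consensus regions lay. The 5 regions of a single siFOXA1 library, at AGR2, AGR3, CA12 and SLC39A6, ranked 15.3% to 46.5% in their list. Without siFOXA1 1, the 9 regions of siFOXA1 2 count in place of these 5.

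The siNS libraries differed from each other at these genes. Of the 60 regions 39 had a peak of 1 library only, against 55.4% of all merged regions. Of the 60, 22 had a peak of siNS 2 alone (background 21.1%) and 12 of siNS 1 alone (background 26.0%). The regions of siNS 1 alone ranked 10.1% to 45.6%, with a median of 24.4%. Those of siNS 2 alone ranked 3.53% to 88.7%, with a median of 32.1%, so many were weak as well. Of 16 regions with a siNS 2 rank of 70% or more, 7 had no siNS 1 peak, against 20.1% of all such regions. Of 9 regions with a siNS 1 rank of 70% or more, all had a siNS 2 peak, and 1.11% of all such regions had none. The 7 regions lay at XBP1 (4), AGR3, MLPH and CA12, and 2 of them held a siFOXA1 peak (background 54.9%). The 18 siNS consensus regions compare with 43 when siNS 1 is left out and 31 when siNS 2 is. The part of library quality in this difference was not tested.

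**Figure D5:**
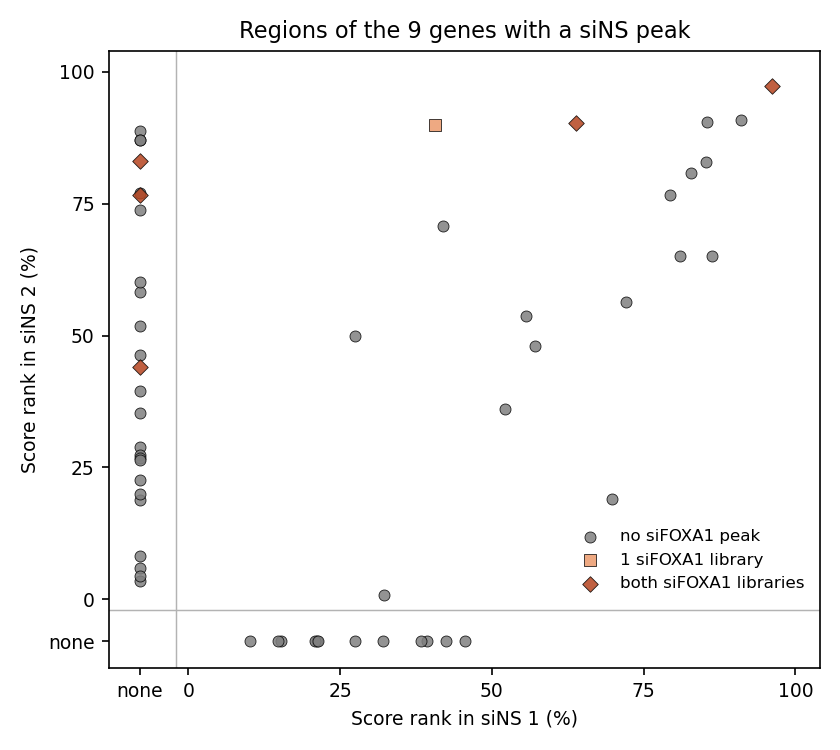
Score rank (%) in siNS 1 (x axis) and siNS 2 (y axis) of each region of the 9 genes with a siNS peak, with regions absent from a list placed at "none"; marker shape gives the siFOXA1 libraries with a peak. Regions absent from siNS 1 reach 88.7% in siNS 2, whereas regions absent from siNS 2 stay at or below 45.6% in siNS 1.

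Set against the length of genome assigned to them, the 9 genes were dense in TLE3 regions but not evenly so. They took 741 kb, with 8.1 merged regions per 100 kb and 2.43 siNS consensus regions per 100 kb, against 3.06 and 1.14 over all genes. For siFOXA1 consensus regions, 5 at the 9 genes, the density was 0.675 per 100 kb, against 0.3 over all genes. TFF1 had 31.7 regions per 100 kb, XBP1 25.9, MLPH 15.4, TFF3 15.1 and CA12 10.2. SLC39A6 had 4.82, AGR2 4.8, AGR3 2.63 and NAT1 0.564. TFF1 has only 12.6 kb assigned to it, since TFF2 and TMPRSS3 are close.

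Genes of the unfolded protein response, in which XBP1 acts, had siNS consensus regions of which none held a siFOXA1 peak. Of 21 such genes 18 had a siNS consensus region (61.9% of all genes), with a median of 1 region per gene, as over all genes. At most 1 kb from a gene end lay 19 of their 29 siNS consensus regions (42.3% of all). All 29 were without a siFOXA1 peak, which over all regions was held by 6.21% of those within 1 kb of a gene end and by 24.9% of those elsewhere. CRELD2, PDIA4 and SYVN1, which serve protein folding and degradation in the endoplasmic reticulum, had 3 siNS consensus regions each. HSPA5, the chaperone BiP, had 1, with 1 peak in each siNS library. ERN1, which encodes the IRE1 kinase that splices XBP1 mRNA, and EDEM1 were the members with siFOXA1 consensus regions, 3 and 2, none of them in a siNS consensus region.

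Luminal genes often expressed with the 9 had regions in both groups of libraries. Of 21 such genes 17 had a siNS consensus region (61.9% of all genes) and 11 a siFOXA1 consensus region (19.4% of all genes). Of their 64 siNS consensus regions 20 held a siFOXA1 peak (17.0% of all). These were 2 of the 20 that lay within 1 kb of a gene end (6.21% of all) and 18 of the 44 elsewhere (24.9% of all). KDM4B had 11 siNS consensus regions, RHOB 9 and the keratin gene KRT8 8. RHOB alone had 6 of the 20 siNS consensus regions with a siFOXA1 peak. RHOB and ERBB4, a receptor of the epidermal growth factor receptor family, had 4 siFOXA1 consensus regions each, KDM4B 2, and KRT8 and KRT19 1 each. Every other gene of the 11 had 1 as well, so the keratin genes do not stand out. At ERBB4 3 of the 4 had no siNS peak, and at RHOB none.

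Among 21 relatives and partners of the 9 genes, 17 had a siNS consensus region (61.9% of all genes). Of their 29 such regions 5 held a siFOXA1 peak, which is 17.2%, against 17.0% of all. CREB3L1, an endoplasmic reticulum-bound transcription factor, had 4 siNS consensus regions, and MYRIP, a Rab27 effector like melanophilin, and SLC39A11, a zinc transporter, 3 each. MYRIP and SLC39A11 had 2 siFOXA1 consensus regions each, and CREB3L1, MYO5A (the myosin that melanophilin binds) and SLC39A1 1 each. NAT2, the neighbour and relative of NAT1, had no region in any library. The list counts are descriptions, and none was tested against the others.

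By peaks per library in the order siNS 1, siNS 2, siFOXA1 1, siFOXA1 2, KRT19 (11, 11, 1 and 3) was the list gene most like MLPH (11, 11, 1 and 1). The likeness is the sum of the differences in 4 libraries, here 2. KRT8 (10, 10, 2 and 1) was the most like XBP1 (6, 11, 2 and 1), with a sum of 5, and SLC39A11 (5, 10, 4 and 3) the most like CA12 (7, 10, 3 and 4), with a sum of 4. EIF2AK3, IL6ST and TBC1D9 had the same numbers as TFF3 (2, 3, 0 and 0).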

How the data were processed

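TLE3 ChIP-seq was deposited as 1 peak list per ChIP library for 4 of the 6 labelled libraries. The 2 input libraries, labelled MDA-MB-454, were not analysed here. Groups and replicate numbers came from the sample titles; the list of siFOXA1 2 carries another number in its name. Per the submitters' processing notes, the authors used Trim Galore, BWA 0.7.5a, SAMtools and MACS2 on hg38; the sources used here give neither the settings nor how the inputs were used. Each deposited list has 5 columns without a header, the last a score per peak that was used only for ranks within a list.

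Mitochondrial peaks were left out, and the others were merged and assigned to 20037 protein-coding genes of RefSeq (GRCh38.p14). A region that touched more than 1 gene went to the gene with the nearer end, then to that with the longer overlap. Positions are 1-based. All 9 genes are described. Regions of at least 2 libraries are given singly for each gene, and of each further list the 3 genes with the most siNS consensus regions and up to 5 with siFOXA1 consensus regions. The genes and lists were chosen with earlier results of these data known. Values per library were compared by two-sided exact permutation tests. Alternatives were a larger overlap, lists of equal length, a score threshold, widened peaks, 3 other assignments, another denominator of the share and leaving out each replicate. The code was tested on simulated data, where it recovered all 3000 simulated regions and their genes, and bedtools 2.31.1 gave the same 72272 merged regions. Python 3.11.15, numpy 2.4.6, scipy 1.17.1 and matplotlib 3.10.9 were used.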

Additional observations from a re-analysis of the deposited data

How the results depend on the processing

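The number of peaks at the 9 genes and their share of the list stayed higher in the siNS than in the siFOXA1 libraries in each alternative run (12 for the number, 13 for the share), by the group means. The difference in number was 4 to 29.5 peaks, lowest with lists of equal length, and 23 to 35 when 1 replicate was left out; the difference in share was 0.00728 to 0.0587, lowest as a share of the peaks assigned to a protein-coding gene (added after the data were seen), where the groups overlapped, and 0.00744 to 0.031 percentage points. The 18 siNS consensus regions became 11 with each list limited to scores from its median upwards and 6 with lists of equal length, where 4 of the 9 genes had one; leaving out 1 replicate gave 18 to 43. The 5 siFOXA1 consensus regions became 1 under the same limit and 3 with genes within 10 kb, and 5 to 9 when 1 replicate was left out. The share of siNS consensus regions with a siFOXA1 peak was 9.09% to 18.8%, and 6.45% to 16.7% without 1 replicate. With lists of equal length it was 16.7% (1 of 6), against 32.3% of all. Given to ELP2, an alternative added after the data were seen, the region shared with SLC39A6 left 17 siNS consensus regions at 6 genes. Fewer peaks or libraries enter these counts by construction. With the replicate numbers taken as pairs (replicate block), the differences were the same 29.5 peaks and 0.0203 percentage points, with an exact sign-flip p = 0.5, the smallest 2 pairs allow. Deviations of same-numbered libraries had a correlation of 0.004 over 72272 regions, so the numbers were not taken to pair them. Without reads, depth cannot be told apart from binding as a source of missing peaks.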
